A study of Eriocheir sinensis with 6 samples.

Results

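Among the genes of the Chinese mitten crab (Eriocheir sinensis), 166 were expressed in inter-molt muscle and lay on sequences of the genome assembly that are not placed on a chromosome. They were chosen by 2 criteria, a position on a sequence whose name starts with JACDRO and a mean level over the 3 crabs from 1 to under 1000 FPKM. They were 166 of the 28671 genes listed and 12.0% of the 1379 genes on unplaced sequences. The genes set against them are the 12004 placed genes, on sequences with CM names, of the same FPKM range, which were 44.0% of the 27292 placed genes. Muscle was taken from 3 healthy, untreated, wild-type farmed crabs in the inter-molt stage. The crabs were juveniles according to the study's methods, and their exact age is not stated there or in the labels. The study's methods state that each muscle sample came from a single crab and was divided between RNA-seq and ATAC-seq, so each assay has 3 libraries, 1 per crab. All libraries belong to this single condition, and the comparison is between groups of genes, within each library.

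Placed sequences are long pieces of the assembly that were ordered into chromosomes, and unplaced sequences are pieces that were assembled but given no position. In animal genomes, unplaced pieces are often short and often carry repeats, recent duplicates or alternative copies of a locus. The genes on them come from 2 sources, models built by combining gene predictions (EVM models) and loci that the authors added where reads lay outside those models, which are given here by the number in their identifiers. FPKM counts the read pairs of a gene per kilobase of its length, scaled by a library size, so levels can be compared between genes of different length. In ATAC-seq the Tn5 transposase inserts adapters where DNA is accessible, and a peak marks a stretch with more insertions than its surroundings. Open promoters are a usual mark of genes that are transcribed or ready to be. Inter-molt is the quiet stage of the crustacean molting cycle, in which the shell is hard and walking-leg muscle fills it.

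None of the members has a gene name in the files, and 0 of the identifiers matched the gene table of the species held in RefSeq. Muscle markers could therefore not be looked up to check the labelled tissue, and members are described by position, structure, level and promoter state only. The RNA libraries held 6772294, 7391379 and 7920094 reads on genes in crabs 1, 2 and 3. Crab 3 stood apart in scaling, because the library sizes behind the deposited FPKM were 1.04, 1.27 and 0.491 times these totals. Its FPKM are therefore about 2-fold higher than plain read totals would give, and comparisons between crabs are given on both scales where they change. In muscle made of several cell types, fewer cells of a type and less RNA per cell cannot be told apart.

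Most unplaced genes had no counted read at this depth. Reads mapping to several places had been left out by the authors, and what they would add to these genes was not tested. No read fell on 780 of the unplaced genes (56.6%), against 7583 of the placed genes (27.8%). A further 433 unplaced genes had reads but a mean under 1 FPKM, against 7556 placed genes. No unplaced gene reached 1000 FPKM, while 149 placed genes did. The members took 14811, 14955 and 5947 reads in crabs 1, 2 and 3, which is 0.219%, 0.202% and 0.0751% of the library. At the lower bound, locus 7061 was the member nearest to 1 FPKM, with 7, 0 and 3 reads. The unplaced gene just below the bound, evm.TU.JACDRO010001403.1.2, had 1, 0 and 2 reads, so single reads decide membership there.

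The levels chose the members, so they are a description. The median member had a mean of 2.77 FPKM (quartiles 1.55 and 6.47), against 4.98 FPKM for the placed genes of the range (quartiles 2.26 and 13.5). Members under 10 FPKM numbered 143 (86.1%), against 68.7% of the placed genes. A further 15 members had 10 to under 30 FPKM, 3 had 30 to under 100 FPKM and 5 had at least 100 FPKM. The median member had 2.46, 2.11 and 3.20 FPKM in crabs 1, 2 and 3, against 4.81, 4.90 and 4.22 FPKM for the placed genes. These medians were 0.511, 0.430 and 0.758 times those of the placed genes, a ratio that no scaling of a library can alter. In reads, the median member had 12.5, 14 and 11, against 50, 68 and 24 for the placed genes. At least 1 FPKM in every crab was reached by 86 members (51.8%), against 76.1% of placed genes and 75.7% of all genes of this range.

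When genes were chosen on the other 2 crabs alone and read in the crab left out, the order of the groups was the same. Apart from the weighted shares below, the groups were not matched in level. The medians and the shares without a read are therefore not separated from the difference in level given above. The unplaced genes so chosen numbered 162, 176 and 142 for crabs 1, 2 and 3 left out. Their median level in the crab left out was 1.99, 1.68 and 2.42 FPKM, against 4.88, 5.04 and 3.99 FPKM for placed genes chosen in the same way. No read at all was found in the crab left out for 14.2%, 16.5% and 12.7% of these unplaced genes, against 1.77%, 1.15% and 4.46% of the placed genes. At least 1 FPKM there was reached by 68.5%, 60.8% and 69.0%, against 87.0%, 88.3% and 71.1% of placed genes weighted to the same expression classes, which were cut at successive factors of 3.16 in mean FPKM. Crab 3 showed the smallest gap.

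**Figure D1:**
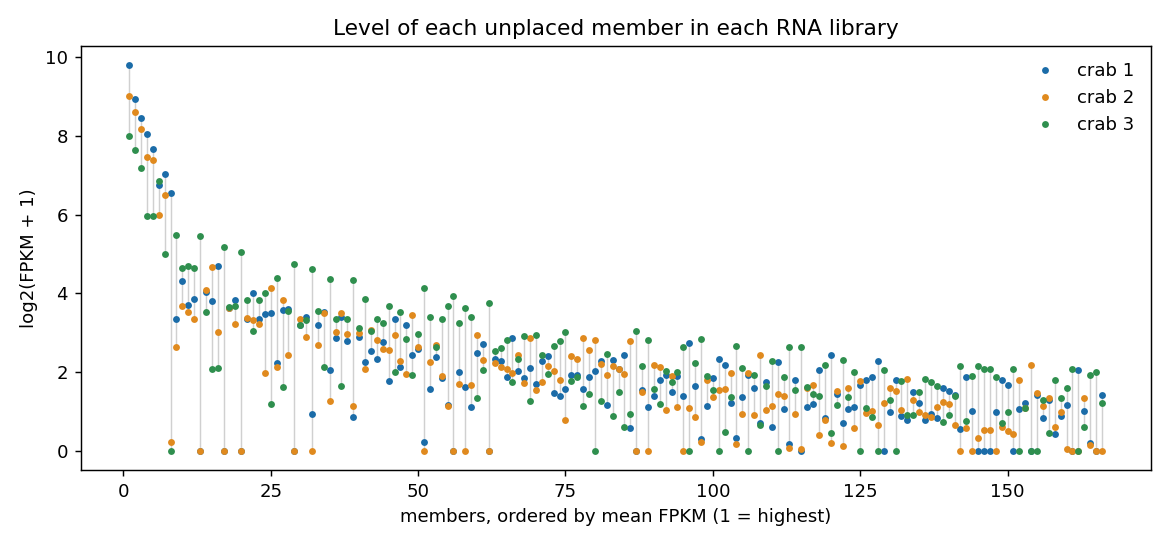
Level of each of the 166 members in each RNA library, as log2(FPKM + 1), with members ordered by mean FPKM from left to right. Points are crabs and grey lines join the lowest and the highest crab of a gene. A few genes stand far above the rest, where 143 of the 166 members have means under 10 FPKM, and many members reach 0 in 1 or 2 crabs.

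A handful of genes carried most of the member reads in crabs 1 and 2, but not in crab 3. The 7 highest members took 55.9% of the reads on members over the 3 libraries, and the 5 highest took 49.2%. The highest was locus 7356, an intronless added locus of 531 bases on the minus strand of JACDRO010004310.1 (bases 41160 to 41690), at 890, 518 and 253 FPKM in crabs 1, 2 and 3. Recomputed on plain totals, its level was 924, 659 and 124 FPKM, so crab 3 was lowest on both scales. It lies at the far end of its sequence as known from the files, and had a promoter peak in every library, of modest fold enrichment (2.51, 2.15 and 2.26 over the local background).

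The EVM models evm.TU.JACDRO010001641.1.1 and evm.TU.JACDRO010001641.1.2 lie next to each other on the same strand, 1755 bases apart, and both are 499 bases long. The first had 352, 291 and 144 FPKM and the second 492, 388 and 201 FPKM in crabs 1, 2 and 3. The ratio of the first to the second was 0.717, 0.750 and 0.717, so the pair kept nearly the same proportion while both were lowest in crab 3. Whether the genes are copies of each other was not tested, since no sequence was used here. Reads mapping to several places had been left out by the authors, and levels of near-identical copies are uncertain for that reason.

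Another high pair lies on JACDRO010001634.1, where the added loci 7136 and 7137 are 383 bases apart on the plus strand. The level of locus 7136 (bases 26695 to 42604) was 266, 177 and 61.6 FPKM, and that of locus 7137 (bases 42988 to 44100) was 130, 89.3 and 31.1 FPKM. Their ratio was 2.04, 1.98 and 1.98, or 2.00 ± 0.0339 (SD, n = 3), and it is the same on any scaling of the libraries. On plain read totals the levels were 276, 225 and 30.2 FPKM for locus 7136 and 135, 114 and 15.3 FPKM for locus 7137. Both overlap another added locus on the minus strand, and since strand use in the counting is not stated, reads of overlapping models cannot be told apart. These 2 pairs were singled out after their values were seen, as the only ones of members with at least 50 FPKM on a shared sequence.

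The remaining high members were more varied. The level of evm.TU.JACDRO010000460.1.6 was 204, 168 and 61.2 FPKM, with crab 3 again lowest. By contrast, evm.TU.JACDRO010000461.1.10 had 106, 63.3 and 116 FPKM, evm.TU.JACDRO010003262.1.11 had 9.14, 5.28 and 44.0 FPKM, and evm.TU.JACDRO010000915.1.1 had 19.1, 11.9 and 24.1 FPKM, all highest in crab 3 as deposited. On plain read totals only evm.TU.JACDRO010003262.1.11 of these 3 was still highest in crab 3, at 9.49, 6.72 and 21.6 FPKM. Crab 3 was the lowest crab in 6 of the 7 highest members as deposited and in all 7 on plain read totals. Among the other 159 members, crab 3 was the highest in 85 (53.5%) as deposited. The 7 highest members took 0.140%, 0.119% and 0.0218% of the library in crabs 1, 2 and 3, and the other 159 took 0.0787%, 0.0837% and 0.0533%.

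The spread between crabs was wide among the members. The median coefficient of variation over the 3 crabs was 64.4%, against 48.0% for placed genes, and on plain read totals 67.9% against 59.4%. These medians are not matched for level or reads, and the median member had 46 reads over the 3 libraries, against 155 for placed genes. A gene was counted as differing between crabs when its highest crab exceeded its lowest by 2 or more on the log2(FPKM + 1) scale, with no test, since each crab has 1 library. By this count 49 members (29.5%) differed, against 1628 placed genes (13.6%) and 13.8% of all genes of the range. On plain read totals the counts were 43 members (25.9%) and 2669 placed genes (22.2%), beside 22.3% of all genes of the range, so the distance was smaller on that scale. Scaled by the median ratio of genes, they were 48 members (28.9%) and 14.5% of placed genes, beside 14.7% of all genes of the range. None of these shares is matched for level, and in placed genes the share rose with level. As deposited, from 1 to 3.16 FPKM 28.1% of 89 members differed, against 7.24% of placed genes. From 3.16 to 10 FPKM it was 27.8% of 54 against 12.96%, and from 10 to 31.6 FPKM 43.75% of 16 against 16.96%. The higher classes, in rising order, had 50% of 2 members against 22.8%, 33.3% of 3 against 38.8% and 0% of 2 against 40.7%. A gene under a mean of 1 FPKM cannot reach a range of 2, so the choice of members bears on their share. Without a lower bound on the level, these 49 genes were 8.18% of 599 unplaced genes, against 8.32% of placed genes and 8.32% of all such genes. The genes so added, 433 unplaced and 7556 placed, cannot be counted as differing. These shares therefore do not measure the spread of the members. With at least 1 FPKM in every crab, 12 of 86 members differed (14.0%), against 11.3% of placed genes and 11.4% of all such genes. Crab 3 decided the deposited count, as it was highest in 33 of the 49, crab 1 in 10 and crab 2 in 6. Without crab 3, and with genes chosen anew on the other 2 crabs, 5 of 142 unplaced genes differed (3.52%), against 1.58% of placed genes and 1.60% of all such genes.

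The classes of reads that follow keep the lower bound on the level, so the choice of members bears on their shares too. Within this FPKM range the gap was present at each depth, which does not separate depth from that choice. With under 30 reads over the 3 libraries, 24 of 61 members differed (39.3%), against 17.0% of placed genes. With 30 to under 100 reads, 14 of 61 members differed (23.0%), against 11.1%, and with at least 100 reads 11 of 44 differed (25%), against 14.0%. On plain read totals the shares in these 3 classes were 23.0%, 24.6% and 31.8% of members, against 16.0%, 18.8% and 24.9% of placed genes. Members that were added loci differed in 25 of 63 cases (39.7%) and EVM members in 24 of 103 (23.3%), against 14.2% and 13.5% of placed genes of these kinds. On plain totals the kinds were alike, with 25.4% of added and 26.2% of EVM members, against 22.8% and 22.2% of placed genes. Over all members crab 3 was the highest in 86 (51.8%), against 37.7% of placed genes and 37.9% of all genes of the range. On plain totals it was the highest in 46 members (27.7%), against 13.1% of placed genes and 13.3% of all genes of the range.

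A subset of members had reads in a single crab. Such a gene passed the lower bound through that crab alone, so these counts and levels rest on the values that chose the members and are a description. This was so for 11 members (6.63%), against 51 placed genes (0.425%) and 0.509% of all genes of the range. A further 26 members (15.7%) had reads in 2 crabs, against 3.44% of placed genes. Of the 11, crab 3 was the crab with reads in 9, and 8 of these 9 were added loci. Crab 1 alone had reads for locus 7182 (8 reads) and crab 2 alone for evm.TU.JACDRO010000436.1.4 (18 reads). They lay on 10 sequences, and 6 of them rested on at least 30 reads.

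The largest of these were well covered in crab 3. Crab 3 had 183 reads (35.1 FPKM) for locus 6750 and 149 reads (32.3 FPKM) for locus 6753, while crabs 1 and 2 had 0 for both. These loci lie on JACDRO010000212.1, at bases 10656 to 14446 and 15605 to 17042, on opposite strands. Another added locus covers nearly the same bases as locus 6750 on the other strand, so reads there cannot be told apart. With 3 reads per library taken as the upper limit for a library at 0, locus 6750 was at least 110-fold higher in crab 3 as deposited, and at least 52.2-fold on plain totals. For locus 6753 the bounds were 89.8-fold and 42.5-fold. For locus 7229 on JACDRO010003252.1, with 137 reads in crab 3 (26.1 FPKM), they were 82.6-fold and 39.0-fold. For evm.TU.JACDRO010002899.1.1, an EVM model of 435 bases with 73 reads in crab 3 (43.2 FPKM), they were 44.0-fold and 20.8-fold. These bounds cover counting error only, and they rest on the values that chose the members, so they are a description.

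The widest range of any member belonged to locus 6897 on JACDRO010000538.1 (bases 12425 to 17050), and here crab 1 was the high one. It had 92.3, 0.178 and 0 FPKM in crabs 1, 2 and 3, from 388, 1 and 0 reads. Its promoter was open in every ATAC library (fold enrichment 5.80, 7.24 and 6.30). Among the 9 members with reads in crab 3 only, 5 had a promoter peak in every library, locus 6753, locus 7229, locus 6854, locus 6739 and evm.TU.JACDRO010002899.1.1. The known sequence that holds evm.TU.JACDRO010002899.1.1, of 2921 bases, lies wholly within 2 kb of its start site, so any peak on it counts. At evm.TU.JACDRO010002899.1.1 the fold enrichment was 16.1, 16.4 and 16.7, so peaks of nearly equal height stood beside 0, 0 and 73 reads. At locus 6739 it was 14.1, 15.6 and 18.7, beside 0, 0 and 36 reads.

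At the other end, the members of at least 10 FPKM with the narrowest range varied little on the deposited scale. The level of evm.TU.JACDRO010000912.1.5 was 11.5, 11.4 and 11.6 FPKM, a range of 0.03 on the log2(FPKM + 1) scale, but its range was 1.21 on plain read totals. Next came evm.TU.JACDRO010000891.1.1 at 9.23, 9.37 and 13.4 FPKM, evm.TU.JACDRO010000461.1.9 at 15.3, 16.1 and 10.6 FPKM, locus 6840 at 13.3, 8.35 and 11.8 FPKM, and evm.TU.JACDRO010000463.1.4 at 9.28, 8.27 and 13.2 FPKM. In the same order, the ranges of these 4 were 0.49, 0.57, 0.61 and 0.62 as deposited and 0.77, 1.80, 1.12 and 0.62 on plain read totals. All 5 are long for members, between 2303 and 3807 bases. No promoter peak was called in any library for 4 of the 5, the exception being evm.TU.JACDRO010000891.1.1, with fold enrichments of 2.89 and 2.66 in libraries 1 and 2.

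The members differed from the placed genes in kind and in length more than in the stretch of genome they cover. Added loci made up 63 of the 166 members (38.0%), against 1270 placed genes of the range (10.6%) and 11.0% of all genes of the range. With placed genes weighted to the members' expression classes, the share was 12.8%, a difference of 25.2 percentage points. Over genes of any level, added loci were 50.0% of unplaced and 24.4% of placed genes. Intronless genes, whose deposited length equals their span, were no commoner among members, at 16 (9.64%) against 11.4% weighted and 11.0% of all genes of the range. Overlap with another gene model was found for 20 members (12.0%), against 8.36% of placed genes and 8.41% of all genes of the range.

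**Figure D2:**
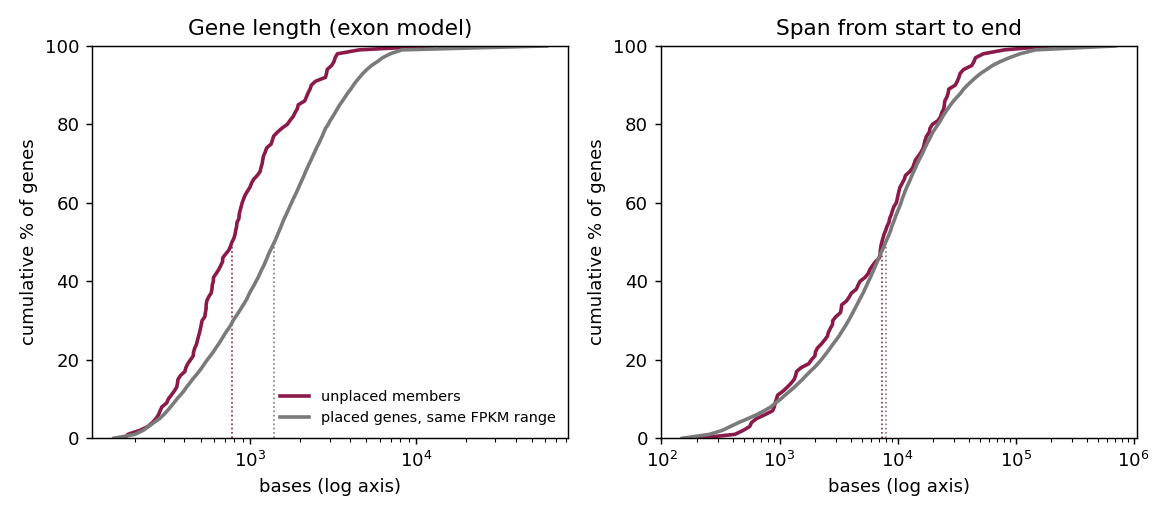
Cumulative share of genes by deposited gene length (left) and by span from start to end (right), in bases on a log axis, for the unplaced members and the placed genes of the same FPKM range. Dotted lines mark the medians. The length curves stand apart, with medians of 773.5 and 1395 bases, while the span curves run close together, with medians of 7366.5 and 7942 bases.

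The median member was 773.5 bases long (quartiles 479 and 1333), against 1395 bases for placed genes (quartiles 665 and 2574), a difference of medians of -0.85 on the log2 scale. The median span was 7366.5 bases, against 7942 bases, a difference of -0.11. The exon model thus covered 11.8% of the median member's span, against 19.9% in placed genes. The shorter length held for both kinds of gene. EVM members had a median of 645 bases and placed EVM models 1354, and added members had 996 bases and placed added loci 1709. For span the kinds went in opposite directions, with 8036 bases in EVM members against 8595 in placed EVM models, and 6198 bases in added members against 3722 in placed added loci. Member lengths ran between 174 and 12538 bases.

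The longest spans belonged to locus 7321 (199913 bases on JACDRO010003290.1), evm.TU.JACDRO010003237.1.5 (92686 bases) and locus 7319 (73873 bases). Of these, locus 7321 had 0.13, 0.05 and 5.22 FPKM from 2, 1 and 46 reads, and it overlaps another model. The level of evm.TU.JACDRO010003237.1.5 was even, at 8.18, 9.16 and 8.22 FPKM, with promoter fold enrichments of 8.75, 9.52 and 7.29. The level of locus 7319 was low, at 1.86, 1.30 and 0.90 FPKM. All 3 had a promoter peak in every library.

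The members were spread over 88 of the 2875 unplaced sequences that the files name, and 553 of those sequences hold a gene. A single member lay on 56 sequences, 2 members on 14 and 3 or more on 18, which together held 82 members. On 25 sequences the member was the only gene. The extent of a sequence, taken as its highest position in the files and therefore a lower bound, had a median of 67.6 kb over these 88 (2.92 to 1962 kb). Their extents summed to 19.5 Mb, against 1131 Mb for the 72 placed sequences. The start site of 19 members lay within 2 kb of an end of the sequence as known, against 13 of the placed genes. Along their sequences 51 pairs of members were neighbours, 35 of them on the same strand.

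By far the richest sequence was JACDRO010000460.1, of 419300 bases, where 17 of 26 genes (65.4%) were members, 10 of them EVM models and 7 added loci. The next were JACDRO010000461.1 and JACDRO010000912.1, with 7 members each. The median mean level on JACDRO010000460.1 was 3.21 FPKM, with evm.TU.JACDRO010000460.1.6 alone above 16 FPKM. As deposited, a range of at least 2 between crabs was found for 1 of the 17, evm.TU.JACDRO010000460.1.4, at 11.0, 13.3 and 2.06 FPKM, and crab 3 was the highest in 4. On plain read totals 5 of the 17 had such a range (29.4%), and crab 3 was the highest in 0. The 4 that were highest in crab 3 as deposited were evm.TU.JACDRO010000460.1.2 (5.84, 5.01 and 8.45 FPKM), locus 6823 (2.84, 1.06 and 3.08 FPKM), locus 6822 (1.15, 2.01 and 2.09 FPKM) and evm.TU.JACDRO010000460.1.10 (13.6, 9.13 and 23.9 FPKM). Crabs 1 and 2 were close in evm.TU.JACDRO010000460.1.7 (10.5, 10.4 and 3.37 FPKM) and in evm.TU.JACDRO010000460.1.8 (3.24, 3.25 and 1.80 FPKM).

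**Figure D3:**
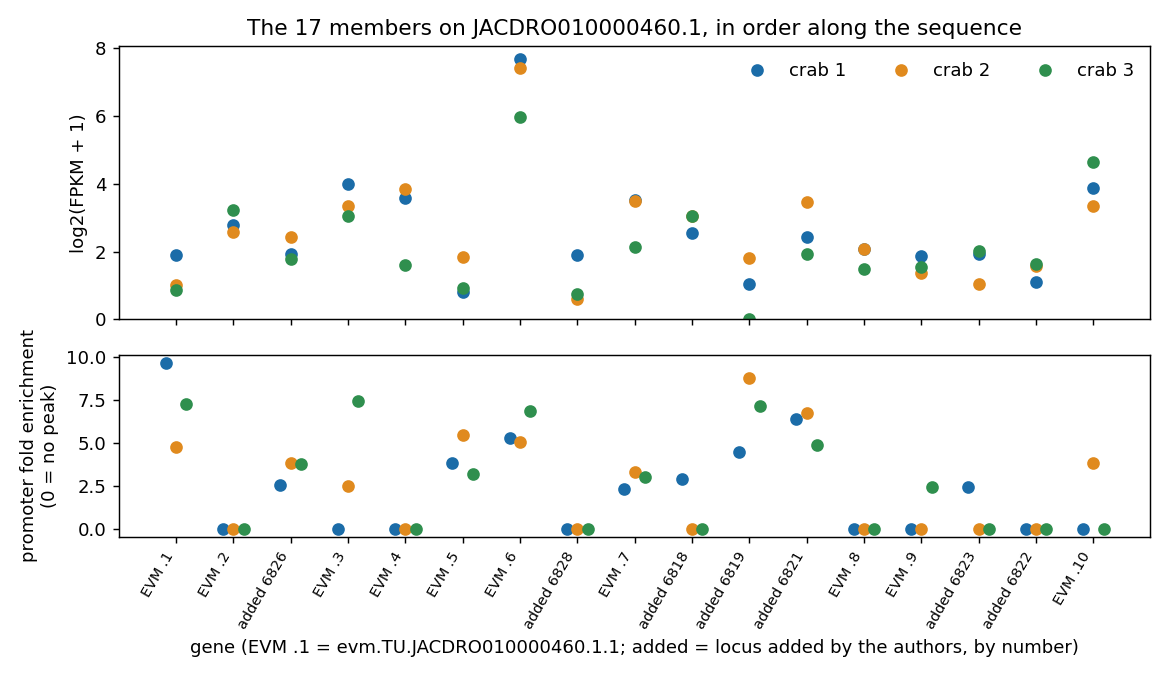
The 17 members on JACDRO010000460.1 in order along the sequence, with the level in each crab as log2(FPKM + 1) above and the highest fold enrichment of a promoter peak in each ATAC library below (0 where no peak was called). The gene evm.TU.JACDRO010000460.1.6 stands out in level, and promoters with peaks in all 3 libraries (7 genes) lie interspersed with promoters without any (5 genes).

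Promoters on JACDRO010000460.1 did not follow the level. A peak in every library was found for 7 members, among them evm.TU.JACDRO010000460.1.6 (fold enrichments 5.26, 5.02 and 6.86), but also evm.TU.JACDRO010000460.1.1, at 2.71, 1.01 and 0.82 FPKM, with 9.66, 4.73 and 7.25. Added locus 6819 had 4.46, 8.79 and 7.13 beside 1.08, 2.51 and 0 FPKM, and locus 6821 had 6.42, 6.76 and 4.90 beside 4.43, 9.92 and 2.83 FPKM. The other genes with peaks in every library were locus 6826 (2.52, 3.83 and 3.75), evm.TU.JACDRO010000460.1.5 (3.80, 5.48 and 3.18) and evm.TU.JACDRO010000460.1.7 (2.34, 3.31 and 3.03). No promoter peak in any library was found for evm.TU.JACDRO010000460.1.2, evm.TU.JACDRO010000460.1.4, evm.TU.JACDRO010000460.1.8, locus 6822 and locus 6828. The last had 2.70, 0.50 and 0.70 FPKM. The other members, locus 6818, locus 6823, evm.TU.JACDRO010000460.1.3, evm.TU.JACDRO010000460.1.9 and evm.TU.JACDRO010000460.1.10, had a peak in 1 or 2 libraries.

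Promoter accessibility, which the choice of members did not use, was then compared in each ATAC library on its own list of peaks. The lists held 49574 to 57320 peaks. A promoter was taken as 2 kb on either side of the start site, as the study defines it. A promoter peak was found for 117, 108 and 104 members in libraries 1, 2 and 3, which is 70.5%, 65.1% and 62.7%. Placed genes weighted to the same expression classes had 45.1%, 36.4% and 49.3%, and all genes of the range had 48.8%, 39.4% and 52.4%. The members exceeded the weighted placed genes by 22.4 ± 8.03 percentage points (SD, n = 3), in 3 of 3 libraries. By an exact sign-flip permutation test over the libraries (two-sided), p = 0.25, which is the smallest value that 3 libraries allow. The share was thus higher in each library, but no test of this size can pass 0.05.

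A promoter peak in all 3 libraries was found for 89 members (53.6%), against 31.2% of weighted placed genes and 34.3% of all genes of the range. No promoter peak in any library was found for 36 members (21.7%), against 43.6% and 40.4%. No peak in the promoter or anywhere in the gene was found for 12 members (7.23%), against 28.8% of placed genes and 28.5% of all genes of the range. Among genes with any promoter peak, 68.5% of the members and 57.3% of the placed genes had it in all 3 libraries. EVM members had a peak in 61.2% ± 2.57 and placed EVM models in 48.1% ± 6.90 (SD, n = 3 libraries each). Added members had a peak in 74.1% ± 6.42 and placed added loci in 34.0% ± 6.48, the wider gap of the 2 kinds.

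**Figure D4:**
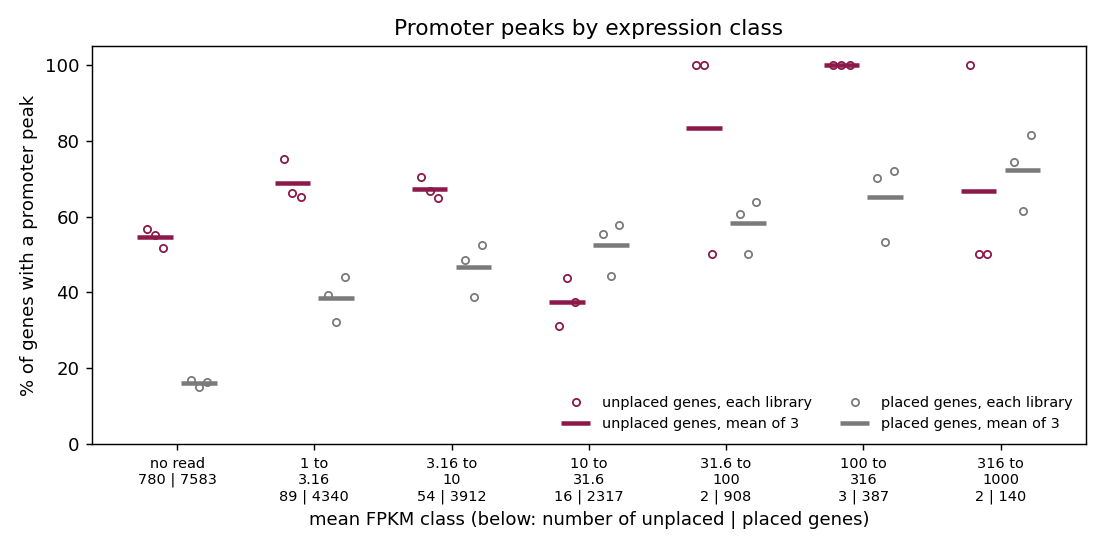
Share of genes with a promoter peak by class of mean FPKM, for unplaced and placed genes. Circles are the 3 ATAC libraries, bars are their means, and the numbers of genes stand below each class. Unplaced genes lie above placed genes without a read (54.5% against 16.1%) and in both classes under 10 FPKM, and below them from 10 to 31.6 FPKM (37.5% against 52.6%), while the classes above hold 7 members in all.

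By level, the excess was found in the weakly expressed members, which are most of them, and it was not uniform above. From 1 to 3.16 FPKM, 68.9% ± 5.54 of 89 members had a promoter peak, against 38.5% ± 5.89 of 4340 placed genes (SD, n = 3 libraries). From 3.16 to 10 FPKM it was 67.3% ± 2.83 of 54 members, against 46.6% ± 7.17 of 3912 placed genes. From 10 to 31.6 FPKM the order turned round, with 37.5% ± 6.25 of 16 members against 52.6% ± 7.19 of 2317 placed genes. The classes above hold few members. The shares were 83.3% of 2 members against 58.2% from 31.6 to 100 FPKM, 100% of 3 against 65.2% from 100 to 316 FPKM, and 66.7% of 2 against 72.4% from 316 to 1000 FPKM. Among placed genes each higher class had the higher share, and among members this was not so. The 86 members with at least 1 FPKM in every crab had 61.6%, 60.5% and 54.7%, against 50.6%, 40.5% and 55.0% of weighted placed genes. That difference was 10.2 ± 10.2 points (SD, n = 3, exact sign-flip permutation test p = 0.5), within the spread between libraries. The other 80 members had 73.8% ± 5.45.

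By median level, members with open promoters were not the more highly expressed ones. The classes of highest level, given above, hold too few members to be read in this way. Members with a peak in all 3 libraries had a median level of 2.29 FPKM (89 genes), and those with none had 3.05 FPKM (36 genes). In placed genes the order was the opposite, with 6.80 FPKM where a peak was in all 3 libraries and 3.84 FPKM where there was none. A range of at least 2 between crabs was found in 33 of the 89 members with peaks in all libraries (37.1%) and in 10 of the 36 without (27.8%), against 12.5% and 14.0% of placed genes. On plain totals these shares were 33.7% and 25% of members, against 20.4% and 24.1% of placed genes.

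Peaks were also common at unplaced genes without a read and over the whole of the sequences that hold members. Among unplaced genes with no read, 54.5% ± 2.60 had a promoter peak, against 16.1% ± 1.02 of silent placed genes (SD, n = 3). Members exceeded the silent unplaced genes by 11.6 ± 1.88 points. Placed genes weighted to the members' expression classes exceeded the silent placed genes by 27.6 ± 5.78 points. The gap between these excesses was -16.0 ± 5.44 points, below 0 in 3 of 3 libraries (exact sign-flip permutation test p = 0.25). Of the positions on the members' own sequences, averaged per member, 45.0% ± 2.40 lay within 2 kb of a peak, against 12.9% ± 1.54 for placed genes. Sequences with a member carried 122, 119 and 107 peaks per Mb in libraries 1, 2 and 3, against 36.8, 30.4 and 38.8 on placed sequences. The ratio was 3.33, 3.90 and 2.75, a log2 ratio of 1.72 ± 0.25 (SD, n = 3, exact sign-flip permutation test p = 0.25). How far this density accounts for the promoter peaks of the members was not tested. Unplaced sequences as a whole carried 143 ± 13.5 peaks per Mb. Lengths here are the extents given above, which are lower bounds, so all these densities are upper bounds. For unplaced sequences as a whole the bound is loosest, since most were counted through a peak alone and those without gene or peak were left out.

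**Figure D5:**
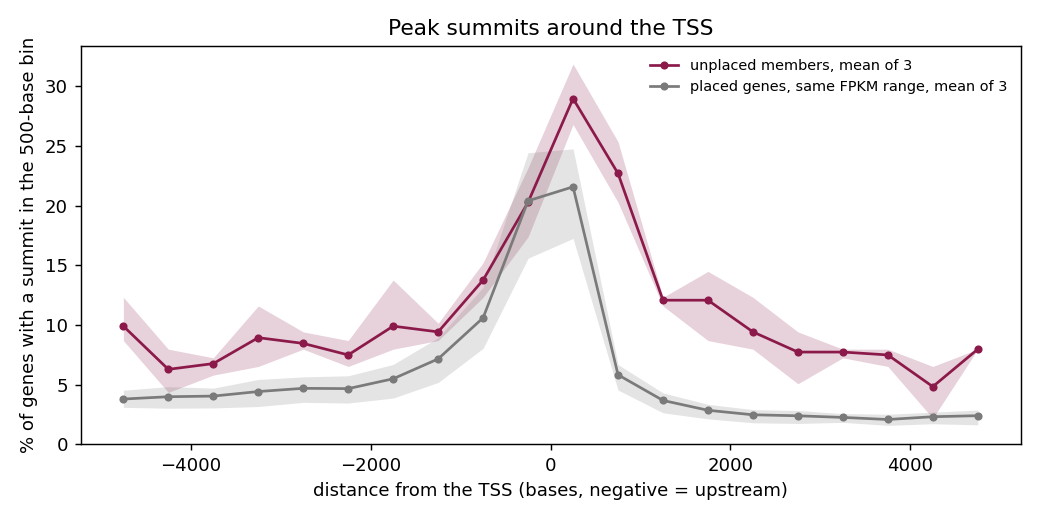
Share of genes with a peak summit in each 500-base bin around the transcription start site, for members and placed genes whose start lies at least 5000 bases from both ends of the sequence. Lines are means of the 3 ATAC libraries and bands run between the lowest and the highest library. Both groups peak at the start site, and the members stay high in the bin 500 to 1000 bases downstream (22.7% against 5.82%) and have a higher level far from the start.

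The position of summits, the highest points of the peaks, was examined for 138 members and 11987 placed genes whose start site lay at least 5000 bases from the ends of the sequence. Within 500 bases of the start, 24.6% ± 1.09 of members had a summit per 500-base bin, against 21.0% ± 4.17 of placed genes (SD, n = 3 libraries). Beyond 3000 bases it was 7.49% ± 0.727, against 3.16% ± 0.705. The ratio of near to far was therefore lower in members, 3.31 ± 0.279 against 6.68 ± 0.185. In the bin 500 to 1000 bases downstream, 25.4%, 22.5% and 20.3% of members had a summit in libraries 1, 2 and 3, against 6.24%, 4.55% and 6.68% of placed genes. This bin was singled out after the profile was seen, while in the bin of 500 bases just upstream of the start the groups were close, at 20.3% ± 2.90 of members and 20.4% ± 4.47 of placed genes.

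Where a promoter was open, the height of its peak was much the same in both groups. The median fold enrichment was 4.02, 4.46 and 4.47 in members and 3.74, 3.72 and 4.68 in placed genes in libraries 1, 2 and 3. The difference of medians on the log2 scale was 0.10 ± 0.16 (SD, n = 3, exact sign-flip permutation test p = 0.5), and it was -0.018 with a promoter of 1 kb. The median peak was 447 ± 25.7 bases wide in members and 410 ± 41.9 bases in placed genes. Counted over all genes, with or without a promoter peak, members had 1.03 ± 0.0650 peaks per promoter and placed genes 0.634 ± 0.111.

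The strongest promoter of a member was that of evm.TU.JACDRO010000509.1.1, with fold enrichments of 24.8, 18.2 and 24.1 beside a level of only 2.72, 1.15 and 3.0 FPKM. The promoter of evm.TU.JACDRO010000505.1.7 reached 11.0, 12.5 and 18.6 beside 6.32, 2.95 and 2.38 FPKM. That of evm.TU.JACDRO010000514.1.1, at 174 bases among the shortest gene models of the members, reached 12.8, 11.2 and 14.1 beside 2.45, 4.88 and 11.8 FPKM. With evm.TU.JACDRO010002899.1.1 and locus 6739 these are the 5 highest, and none of the 5 had 3 or more FPKM in every crab. Among the 10 members with the highest mean level, evm.TU.JACDRO010000915.1.1 had the strongest promoter (10.9, 9.32 and 9.92).

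The opposite state, expression without any peak in the promoter or the gene, was led by evm.TU.JACDRO010003234.1.3, an intronless model of 3182 bases at 3.35, 3.90 and 10.5 FPKM from 75, 117 and 130 reads. It was followed by evm.TU.JACDRO010000912.1.6 (4.98, 5.24 and 6.88 FPKM), evm.TU.JACDRO010003234.1.2 (1.79, 3.12 and 5.39 FPKM), evm.TU.JACDRO010000460.1.8, given above, and evm.TU.JACDRO010001464.1.1 (4.45, 2.90 and 0.52 FPKM). The first and the third lie on the same sequence, JACDRO010003234.1. All 5 are EVM models.

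The study lists genes that changed in both expression and accessibility between molting stages. All 6 unplaced genes on those lists were members, which is 3.61% of the members, against 5.66% of the placed genes of the range and 5.63% of all genes of the range. Those listed between post-molt and inter-molt were evm.TU.JACDRO010000460.1.3 (15.1, 9.08 and 7.26 FPKM), evm.TU.JACDRO010000460.1.5 (0.74, 2.57 and 0.89 FPKM) and evm.TU.JACDRO010000460.1.9 (2.63, 1.57 and 1.91 FPKM), all on JACDRO010000460.1. Inter-molt crabs entered that choice, so it is not independent of these libraries. Those listed between pre-molt and molt were evm.TU.JACDRO010000891.1.1, evm.TU.JACDRO010003234.1.3, both given above, and evm.TU.JACDRO010000894.1.5 (4.28, 3.43 and 2.88 FPKM). In the present libraries the first 3 had promoter peaks in 2, 3 and 1 libraries, while evm.TU.JACDRO010003234.1.3 had none.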

How the data were processed

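RNA-seq and ATAC-seq were measured in muscle of the same 3 crabs. For RNA-seq, the authors trimmed with Trimmomatic, aligned with HISAT2 (2.0.5 in the submitters' processing notes), counted uniquely mapped reads with featureCounts (1.5.0-p3 there) and deposited FPKM. For ATAC-seq, the authors aligned with BWA and called peaks per library with MACS2. The peak lists hold the authors' deposited fold enrichment (a ratio of summit pileup over local background), -log10 p and -log10 q values and a score, which is -log10 q times 10 cut to a whole number. The authors aligned both assays to the same public reference genome of the species, whose sequences carry CM and JACDRO names. An assembly name for it, any shift of reads for the transposase and the strand setting of the counting are not given in the sources used here. The ATAC depth is unknown. The peak names in the third list carry the number 7, so its assignment to crab 3 rests on the sample record.

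FPKM multiplied by gene length came in whole multiples of 1 step in each library (100% of values within 1%), which gave the reads per gene. No count model was fitted, since there is 1 condition. Plain totals means FPKM recomputed on these reads. A gene's promoter accessibility was its highest fold enrichment of a peak overlapping the promoter by at least 1 base. Differences between gene groups were tested over libraries by exact sign flips. A pseudocount of 1 was used, so differences understate the change of low genes. Positions count from 1.

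The members and lists were chosen with earlier results of these data known. The genes named were the 10 highest, the 5 of widest and the 5 of narrowest range (narrowest among those of at least 10 FPKM), the 5 with the highest promoter fold enrichment, the 5 highest without a peak, the 3 longest spans, those at the bounds, those on the sequence with most members and those on the study's lists. Sequences are not shown, since no genome was used here. The functions were tested on simulated data. Python 3.11.15, numpy 2.4.6, pandas 2.3.3, scipy 1.17.1 and matplotlib 3.10.9 were used.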

Additional observations from a re-analysis of the deposited data

How the results depend on the processing

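Of 80 values recomputed under alternatives, 72 stayed within the limits set, among them the intronless difference, whose sign changed without a filter on level (1.31 points). The limits were a set factor for counts, the same sign for promoter and peak density results, and the 95% interval of the main value for structure. These limits are wide. The count of members differing between crabs passed without a filter on level, where it could not change, since genes under 1 FPKM cannot be counted. The number of members was 86 when 1 FPKM was required in every crab, and 142 to 176 with 1 crab left out in turn. The members differing between crabs depended most on these choices. They numbered 12 with 1 FPKM in every crab (14.0%, against 11.3% of placed genes), 24 among EVM models only (23.3% against 13.5%), 25 with at least 30 reads (23.8% against 13.1%), 79 with a pseudocount of 0.1 (47.6% against 27.5%) and 5 to 37 with 1 crab left out, the lowest without crab 3 (3.52% against 1.58%). Without a filter on level the shares were 8.18% and 8.32%, but the genes added there cannot be counted, so these shares do not measure the spread. The log2 difference in promoter fold enrichment turned round to -0.018 with a promoter of 1 kb. The promoter peak share of members stayed above that of placed genes under all 16 alternatives, by 10.2 to 34.9 percentage points, the lowest with 1 FPKM required in every crab and the highest without a filter on level. Likewise the excess of added loci was 18.7 to 28.8 points, the log2 length difference -1.07 to -0.76, the log2 span difference -0.14 to -0.08 and the log2 ratio of peak densities 1.62 to 1.94. The intronless difference lay between -4.31 and 1.31 points. Levels read in a crab left out, silent unplaced genes and classes of reads were added after the data were seen. No paired analysis was possible because the libraries belong to a single condition, and no result compares groups of crabs or tests 1 assay against the other. The sign-flip tests use differences within each library. Depth limits the weak members, as 1 read in a gene of their median length is worth 0.184, 0.137 and 0.333 FPKM in crabs 1, 2 and 3.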
